A study of Arabidopsis thaliana with 48 samples.

Results

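The difference between mta and wild-type (WT) rosettes in the uncapped share of their transcripts after drought was measured for every nuclear gene with enough counts. The uncapped share of a gene is its level in a GMUCT library minus its level in an input mRNA library on the log2 scale, and the difference is mta minus WT. It rests on 12 of the 48 libraries of the series, 3 per genotype and assay, and could be tested for 18990 of 27445 nuclear genes. The filter on counts also drew on the libraries of watered plants, so some of these genes had few counts in drought. GMUCT sequences RNA with a free 5′ monophosphate, so it reads transcripts that have lost their cap or been cut. The input is fragmented poly(A) RNA kept back before immunoprecipitation of N6-methyladenosine (m6A).

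Both groups were Arabidopsis thaliana of the Col-0 ecotype. The WT plants were Col-0, and mta was the line written mta ABI3:MTA, in which a mutation of MTA is paired with MTA driven by the ABI3 promoter, a promoter active in embryos, so that MTA function is lost after embryogenesis. Plants of both genotypes were grown in soil, and watering of 17-day-old seedlings was stopped for 12 days before rosette leaves were taken. Watered plants of both genotypes entered the same fit and are given side by side where they differ. Whether replicate libraries stem from different plants is not stated in the labels, and the p-values thus measure only the spread between these libraries. In bulk leaf RNA, fewer cells of a type and less RNA per cell cannot be told apart.

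Most plant mRNAs carry a cap at the 5′ end that protects them and recruits the translation machinery. Decapping, endonucleolytic cuts and cleavage guided by microRNAs (miRNAs) leave a 5′ monophosphate, the substrate of the exoribonucleases of the XRN family. MTA is the catalytic subunit of the m6A writer, and m6A, read by YTH-domain proteins such as the ECT family, is known to affect mRNA stability and translation. A gene can therefore change its uncapped share through the uncapped fragments, through the mRNA pool, or through both.

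Total counts lay between 3706776 and 4557698 in the drought input libraries and between 1313457 and 6104137 in the drought GMUCT libraries, the shallowest and the deepest GMUCT library both being mta. Spearman correlations between replicates were 0.987 to 0.990 for input, 0.978 to 0.979 for WT GMUCT and 0.960 to 0.971 for mta GMUCT. The summed level of 3 leaf genes of photosynthesis was 5898 to 6093 CPM (read counts scaled to the library total) in WT input and 10100 to 11060 CPM in mta input. Not all genes of photosynthesis went this way. Of the 40 tested, input was higher in mta past the threshold in 24 and lower in 11, against 23.1% and 24.6% of all genes. The sums of some markers of other tissues differed as well. The summed CPM of 7 vascular markers was 343 to 397 in WT input against 213 to 232 in mta input. That of 10 seed markers was 26.1 to 30.9 against 9.47 to 11.8. That of 6 guard cell markers was 18.1 to 25.0 against 25.6 to 36.7, and that of 8 root markers 53.0 to 60.5 against 81.5 to 86.8. The trichome and the flower and meristem sums overlapped. Of the tested markers, input by itself was lower past the threshold in 1 of 6 vascular and 1 of 3 seed markers. It was higher in 2 of 6 guard cell and 1 of 4 root markers. The seed markers CRU3, ABI3 and LEC1 were at 0 in all drought input libraries, and none of the tested members of the guard cell, trichome, vascular, flower and meristem, seed or root lists passed the threshold for the uncapped share. The part of tissue makeup in the results was not tested.

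MTA itself (AT4G10760, chr4:6619817-6623381 on the minus strand, TAIR10) was first checked. Its input level was 25.5, 24.8 and 18.5 CPM in the WT libraries and 10.2, 7.88 and 9.20 CPM in mta. Its GMUCT level was 16.0, 15.6 and 16.1 CPM in WT and 4.56, 4.52 and 5.46 CPM in mta. The mta libraries lay below all WT libraries in both assays. The log2 difference was -1.33 ± 0.173 (SE) in input and -1.64 ± 0.238 in GMUCT, and the uncapped share of MTA did not pass (-0.32 ± 0.303, adjusted p = 0.542 by edgeR's quasi-likelihood test).

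The genotypes differed in the input and GMUCT levels of more genes than in the uncapped share. Input alone passed the threshold (adjusted p below 0.05, Benjamini-Hochberg over all 18990 genes) in 47.7% of the genes, of which 4385 were higher in mta (23.1%) and 4674 lower (24.6%). GMUCT alone passed in 39.4%, with 3838 genes higher (20.2%) and 3640 lower (19.2%). In 4605 genes both assays passed in the same direction and in 300 in opposite directions. Over the 18990 genes the GMUCT and the input differences had a Pearson r of 0.63 and a Spearman rho of 0.56. The 2 differences share no library, but genes are not independent replicates. The uncapped share passed in 16.9% of the genes, 1702 higher in mta (8.96%) and 1507 lower (7.94%), and 5499 had an unadjusted p under 0.05. At least a 2-fold difference was seen in 613 of the higher and 635 of the lower genes. The median absolute difference of the share over all genes was 0.47. The median SE was 0.318 for the share, 0.236 for GMUCT and 0.195 for input. The share was thus measured less precisely, and its lower count of genes need not mean smaller differences.

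**Figure D1:**
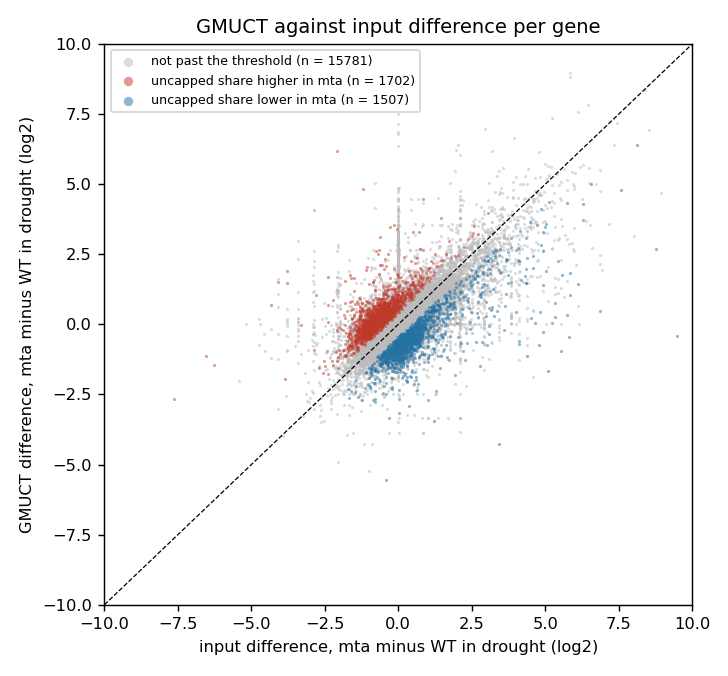
The input difference (x axis) and the GMUCT difference (y axis) of mta minus WT in drought are plotted on the log2 scale, 1 point per tested gene. Genes past the threshold for the uncapped share lie on both sides of the dashed line of equal change, 1702 above it and 1507 below it. The points in vertical lines are genes with few or no input counts.

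The genes whose share rose and those whose share fell differed in which assay had moved. Each assay was counted when it passed the threshold in the direction matching the share. Of the 1702 higher genes, 1124 had only input counted (lower), 395 only GMUCT (higher), 155 both and 28 neither. Of the 1507 lower genes, 583 had only input counted (higher), 744 only GMUCT (lower), 145 both and 35 neither. The assay not counted may still have passed in the other direction, as the lower GMUCT of AT3G01345 and CESA1 did. The median of the higher genes was 0.18 in GMUCT and -0.75 in input. The median of the lower genes was -0.60 in GMUCT and 0.36 in input. A higher share thus came with less mRNA in most genes, while a lower share came with fewer uncapped fragments in more than with more mRNA.

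Among the genes in which GMUCT moved with little change of input, emb2171 (AT3G04400, chr3:1167250-1168723), which encodes a protein of the large cytosolic ribosomal subunit, had the clearest fall. Its GMUCT level was 197, 207 and 236 CPM in WT and 67.4, 53.7 and 74.6 CPM in mta. Its input level was 249, 248 and 259 CPM in WT and 277, 281 and 237 CPM in mta. The GMUCT groups did not overlap and the input groups did, and the share fell by 1.76 ± 0.180 (adjusted p = 2.15e-08). PUX1 (AT3G27310, chr3:10087106-10089260), a UBX-domain partner of the CDC48 ATPase, had a mean of 20.2 CPM in WT GMUCT (highest library 21.6) and 3.64, 4.52 and 7.77 CPM in mta, with 26.7 to 29.7 CPM in WT input and 28.8 to 33.1 CPM in mta. Its share fell by 1.85 ± 0.262 (adjusted p = 7.22e-06). The share of AT5G06210 fell by 2.00 ± 0.320 and that of AT4G34881 by 2.69 ± 0.537. AT4G34881 had 40.3, 19.5 and 10.1 CPM in WT GMUCT and 0, 1.70 and 5.67 CPM in mta. AT5G06210 had 4.56, 3.96 and 4.41 CPM in mta GMUCT. Total counts of mta GMUCT libraries 1 and 2 were only 1313457 and 2311118. The sizes of the falls of PUX1, AT5G06210 and AT4G34881 thus rest on few mta GMUCT reads.

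In the opposite direction, TRM19 (AT3G53540, chr3:19846647-19851045), a member of the family that recruits the TON1 protein to microtubules, had 17.7, 20.6 and 24.5 CPM in WT GMUCT against 61.1, 70.7 and 66.4 CPM in mta. Its input lay between 30.4 and 37.2 CPM in all 6 libraries. Its share rose by 1.69 ± 0.224 (adjusted p = 2.2e-06). AT1G57600 rose by 2.12 ± 0.246, from 26.5 to 40.4 CPM in WT GMUCT to 112 to 151 CPM in mta. It was among the few that also passed in watered plants (1.88, adjusted p = 6.91e-05). AT5G22780, an adaptin subunit gene, rose by 1.63 ± 0.231 and AT1G09040 by 2.23 ± 0.436. GMUCT reads were counted without strand, so a gene that overlaps another (28% of the tested genes) cannot be told apart from its neighbour in GMUCT. TRM19, AT5G22780 and AT4G34881 are such genes, as are MTA above and NRPA2, NPH3, PRP4, AFH14, AT5G55460, AFB3, NAC1, DCL1, ECT3, ECT8, ECT10, LSM1A, RRP44A, CSI1, CESA1, CER2, LTPG1, RCA, P5CS1, P5CS2, COR15B and AT4G35090 below.

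In the second kind of gene the mRNA pool moved and the uncapped fragments did not follow. PRP4 (AT4G38770, chr4:18096606-18098633), a proline-rich protein of the cell wall, had 56.7, 66.9 and 57.7 CPM in WT input and 10.6, 9.92 and 21.4 CPM in mta. Its GMUCT level was 36.1, 39.7 and 42.6 CPM in WT and 35.5, 41.3 and 29.0 CPM in mta. The share rose by 1.89 ± 0.421 (adjusted p = 0.00161) with GMUCT ranges that overlap. The formin gene AFH14 rose by 1.62 ± 0.335 in the same way. AT1G80180 showed the reverse, with 97.9 to 100.2 CPM in WT input and 264 to 314 CPM in mta, while GMUCT lay at 229 to 246 CPM in WT and 221 to 273 CPM in mta. Its share fell by 1.53 ± 0.157 (adjusted p = 2.15e-08). VAMP723, a vesicle SNARE, fell by 1.65 ± 0.426 and AT1G64360 by 1.56 ± 0.227.

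Among genes with at least 2 on the log2 CPM scale in both assays, the rises were led by AT3G01345 (chr3:129138-130749). Its input level was 140, 141 and 115 CPM in WT and 0.73, 0.76 and 0.46 CPM in mta, and its GMUCT level 38.3, 42.9 and 35.0 CPM in WT and 5.47, 7.35 and 5.88 CPM in mta. Both assays were lower in mta, the mRNA at -7.62 and GMUCT at -2.64 on the log2 scale, so its share rose by 4.98 ± 0.437. The mta input libraries held only 3, 3 and 2 reads of this gene, so the size and the rank of the rise rest on few reads. NRPA2, a catalytic subunit of RNA polymerase I (AT1G29940, chr1:10479007-10486824), rose by 2.78 ± 0.354, with 24.5, 18.8 and 13.3 CPM in WT GMUCT against 101, 153 and 52.5 CPM in mta, and with 24.2 to 30.5 CPM in WT input against 19.3 to 21.4 CPM in mta. EMB2247, a valine-tRNA ligase, rose by 2.67 ± 0.235 in drought and by 1.45 in watered plants (adjusted p = 4.12e-05). MET1, the maintenance methyltransferase of CG sites in DNA, rose by 2.39 ± 0.413, but did not pass when all libraries were thinned to the lowest total. NPH3, a signalling partner of the phototropins, rose by 2.37 ± 0.309.

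The largest falls came by more than one route, AT4G34881 above through GMUCT and others with higher mRNA. AT3G22235 had 8.90 to 10.1 CPM in WT input and 139 to 166 CPM in mta, while GMUCT lay at 23.7 to 39.7 CPM in WT and 32.8 to 58.0 CPM in mta. Its share fell by 3.57 ± 0.606, and by 1.95 in watered plants (adjusted p = 0.0421). GSTU8, a glutathione S-transferase, had 0.67 to 0.88 CPM in WT input and 11.3 to 18.1 CPM in mta, and its GMUCT rose less, from 5.23 to 8.51 CPM to 18.3 to 23.7 CPM. The share fell by 2.60 ± 0.463, a size that rests on 3, 3 and 4 reads in WT input. AT5G55460 and AT2G42360 fell by 2.57 ± 0.431 and 2.56 ± 0.470 with both assays higher in mta, the latter from 3, 7 and 10 reads in WT input. AT1G15010 fell by 2.80 ± 0.324 with GMUCT lower (18.1 to 25.3 against 9.05 to 12.8 CPM) and input higher (4.40 to 4.91 against 12.9 to 16.0 CPM).

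The difference followed gene span. The span is the length from start to end of the gene, introns included, as given in the Length column of the count tables. Genes were split into 5 quintiles of span. In the shortest (3798 genes, median span 1192 bases) the median share difference was -0.43, and it was -0.26, -0.08, 0.11 and 0.46 in the following quintiles, the last with a median span of 4655 bases. The share of genes past the threshold and higher in mta went from 0.895% in the shortest to 27.0% in the longest quintile, and the share lower from 16.7% to 1.16%. The longest quintile held 60.3% of all higher genes and the shortest quintile 42.1% of all lower genes. Over all genes Spearman's rho with span was 0.40 for the share, -0.35 for input and -0.003 for GMUCT. In watered plants rho for the share was -0.12. The median of the longest minus that of the shortest quintile was 0.89, and 0.38 with no filter on low counts.

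**Figure D2:**
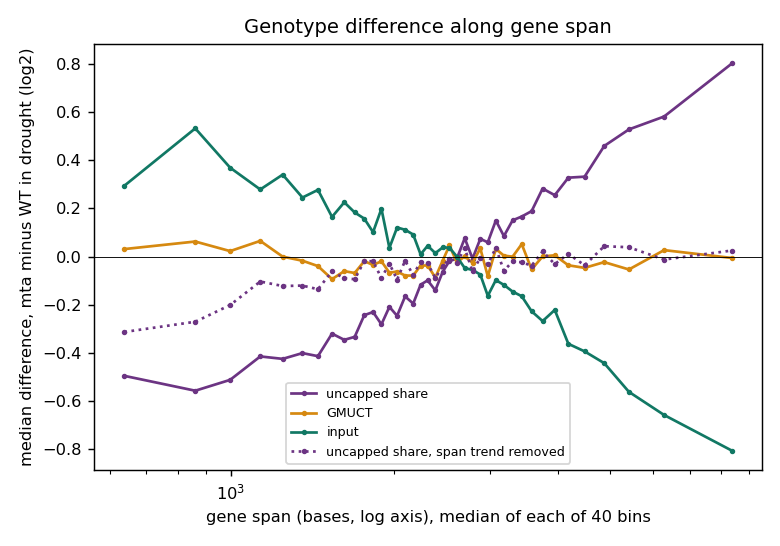
The median log2 difference of mta minus WT in drought is drawn against gene span (log axis, bases) in 40 bins of equal gene number. The GMUCT line stays near 0 at all spans, the input line falls and the share line rises with span, and the dotted line shows the share after the trend was removed.

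Over all genes the trend was seen in the input and not in the GMUCT libraries. For each library the deviation from the mean of the 6 drought libraries of its assay was taken, so that WT and mta deviations mirror each other, and its median in the longest quintile was set against that in the shortest. The WT input libraries gave 0.39, 0.40 and 0.33 and the mta input libraries -0.40, -0.48 and -0.23, a difference of means of -0.74. The groups did not overlap, and the exact two-sided permutation p of 0.1 is the smallest that 3 against 3 libraries allow. The GMUCT libraries gave 0.04, 0.02 and 0.004 for WT and -0.04, 0.04 and -0.04 for mta (exact permutation p = 0.4). With 3 libraries per group this p cannot show that GMUCT had no trend. The trend of the share was found in each quintile of genes by input level: from the shortest to the longest genes the share median went from -0.22 to 0.54 in the lowest level quintile and from -0.49 to 0.50 in the highest. The input median went from 0.34 to 0 in the lowest level quintile and from 0.17 to -0.67 in the highest. The GMUCT median fell from 0.54 to 0.40 in the lowest level quintile and rose from -0.32 to -0.12 in the highest. In the level quintiles between them it rose too, from 0 to 0.04, from -0.09 to 0.02 and from -0.16 to -0.07. The flat GMUCT line over all genes thus pools level quintiles that went different ways. Whether the trend comes from the plants or from the making of the input libraries was not tested.

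**Figure D3:**
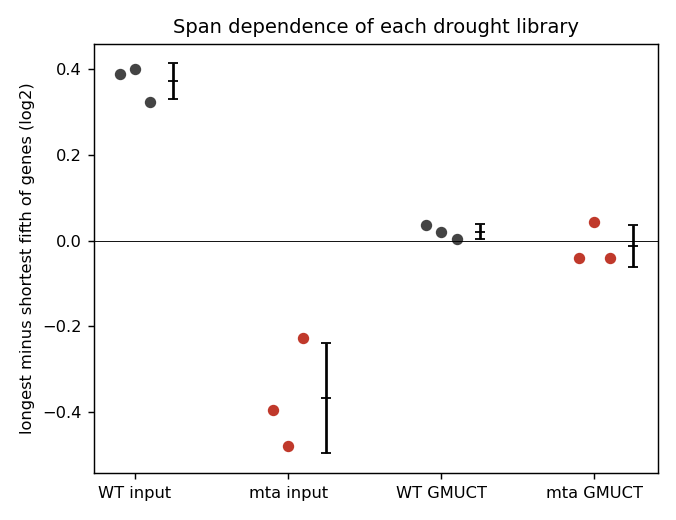
Each point is a drought library, and the y axis gives the median of the longest minus that of the shortest quintile of genes (log2, relative to the mean of the 6 drought libraries of the assay). Bars are the mean and SD of 3 libraries. The WT input libraries lie at 0.33 to 0.40 and the mta input libraries at -0.48 to -0.23, while the GMUCT libraries lie within 0.05 of 0.

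When the trend along span was removed from each library, 797 genes were higher and 1010 lower in mta. Of the 3209 genes past the threshold before, 1493 (46.5%) kept their call and direction, 682 of the higher (40.1%) and 811 of the lower (53.8%), and none reversed. The longest quintile then held 26.0% of the higher genes and the shortest 26.5% of the lower ones. Among the 1493 kept genes, the GMUCT difference by itself had passed in the matching direction in 860 and the input difference in the opposite direction in 876. Over all 18990 genes, 8.96% were higher and 7.94% lower before removal, and 4.2% and 5.32% after it. These are the shares against which the counts of the gene groups below are set. They include genes that passed the filter on counts through watered libraries. With the 12 drought libraries alone 16964 genes were tested, of which 1973 were higher and 1505 lower before removal. Calls also depended on input level. Before removal 1.55% of the genes were higher and 2.08% lower in the lowest level quintile, against 19.6% and 16.8% in the highest. The gene groups were not matched for level, so groups of abundant transcripts can exceed the shares of all genes for that reason.

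Most lists of mRNA decay and m6A reading had longer spans than all genes. The list medians were 4050 bases for decapping and 5′ to 3′ decay, 4764 for surveillance and 3482 for readers, against 2420. The median of the 3 tested deadenylation genes was shorter, at 1339 bases. Of these 3, 1 rose and 1 fell, and neither call remained with the span trend removed. In the decapping and 5′ to 3′ decay list, 3 of 12 tested genes rose and 1 fell. These were 25% and 8.33% of the list. The list median was 0.37 against -0.03 over all genes, and with the span trend removed it was -0.12 against -0.05, with 2 rises and no fall. XRN4 (AT1G54490, chr1:20350109-20356916), the cytoplasmic exoribonuclease that degrades uncapped mRNA, stood at 92.6, 83.7 and 91.3 CPM in WT GMUCT and 170, 213 and 142 CPM in mta. Its input was 68.1, 73.6 and 68.0 CPM in WT and 50.3, 46.8 and 47.9 CPM in mta. Neither assay overlapped between genotypes, and they moved in opposite directions, so the share rose by 1.49 ± 0.179 (adjusted p = 5.47e-07), and by 0.84 with the span trend removed. DCP1, a cofactor of decapping, rose by 1.04 ± 0.207 (1.03 with the trend removed) through its input, 48.0 to 57.2 CPM in WT and 22.4 to 34.7 CPM in mta. XRN3, a nuclear exoribonuclease, rose by 0.91 ± 0.235 but by 0.25 with the trend removed (adjusted p = 0.587). LSM1A, a subunit of the ring that promotes decapping, was the member that fell, by 0.89 ± 0.301. It lost the call when any of 7 single libraries was left out (adjusted p 0.058 to 0.145) and with the trend removed. The decapping enzyme DCP2 and the scaffold VCS did not pass (0.19 and 0.35).

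Of 9 genes of surveillance and 3′ to 5′ decay, 5 rose (55.6%) and none fell, where 27.0% of all genes of the longest span quintile were higher. Among those that rose were RRP44A (1.04 ± 0.242), an exosome ribonuclease, SOV (0.89 ± 0.189), an exoribonuclease, UPF1 (0.89 ± 0.236) and UPF3 (0.76 ± 0.231), factors of nonsense-mediated decay. Input was lower in mta in 6 of the 9 and GMUCT higher in none, against 24.6% and 20.2% of all genes. In the longest span quintile input was lower in 51.0% and GMUCT higher in 18.4% of the genes. With the span trend removed none of the 5 passed. UPF3 also lost the call without any of 4 single libraries (adjusted p 0.055 to 0.149).

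Of 12 m6A readers 4 rose (33.3%) and none fell, with a median of 0.49. ECT6 (1.43 ± 0.457), ECT10 (0.79 ± 0.215), ECT8 (0.50 ± 0.153) and ECT3 (0.48 ± 0.160) passed, and none did with the span trend removed (median 0.21). Each of the 4 also lost the call when single libraries were left out, ECT10 without mta drought input replicate 2 (adjusted p = 0.0508) and the others without any of 3 to 8 libraries (0.052 to 0.103). ECT2, a cytoplasmic reader, had 529 to 591 CPM in WT input and 416 to 426 CPM in mta. Its GMUCT fell alongside, from 411 to 544 CPM to 320 to 371 CPM, and the share difference was -0.07 ± 0.184. Of the 3 tested writers MTA, FIP37 and FIO1, none passed.

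Targets of miRNA cleavage are a class of transcripts in which uncapped 3′ fragments arise by a cut rather than by decapping. Of 69 tested targets 4 rose and 6 fell, 5.80% and 8.70% against 8.96% and 7.94% of all genes, with a median of 0.02. With the span trend removed 2 rose and 9 fell (median -0.15), and the 6 that had fallen were all among the 9. AFB3 (AT1G12820, chr1:4368760-4371298), an auxin receptor targeted by miR393, had 657, 703 and 576 CPM in WT GMUCT and 192, 218 and 438 CPM in mta, at 37.6 to 41.3 CPM in WT input and 36.3 to 42.6 CPM in mta. The GMUCT groups did not overlap, though the mta libraries spread by more than 2-fold, and the share fell by 1.17 ± 0.253 (adjusted p = 0.00125). The related receptors TIR1 and AFB2 did not pass (0.19 and -0.16), and the GMUCT and input of TIR1 both fell.

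The auxin response factors ARF10 and ARF16, both targets of miR160, had lower GMUCT in mta. ARF16 (chr4:14703065-14706354) had 80.8, 102 and 94.1 CPM in WT GMUCT and 22.8, 28.3 and 49.0 CPM in mta, while its input was lower as well, with 32.1 to 37.9 CPM in WT and 24.2 to 31.3 CPM in mta. Its share fell by 0.88 ± 0.234 (adjusted p = 0.00722). ARF10 (chr2:12113889-12116957) had 39.2, 50.7 and 39.0 CPM in WT GMUCT and 18.22, 19.8 and 28.4 CPM in mta with 9.46 to 12.1 CPM in WT input and 10.1 to 11.6 CPM in mta. Its uncapped share fell by 0.93 ± 0.280 (adjusted p = 0.0184), but not past the threshold without WT drought GMUCT replicate 2 (0.058) or without mta drought GMUCT replicate 2 (0.052). NAC1 (AT1G56010), a NAC factor targeted by miR164, fell by 1.02 ± 0.222 with GMUCT lower (90.09 to 113 against 51.9 to 79.8 CPM) and input higher (34.3 to 38.6 against 43.3 to 53.2 CPM). TCP4, a target of miR319, fell by 0.90 ± 0.273 and lost the call without any of 3 libraries (0.064 to 0.090). GRF4, a target of miR396, fell by 3.01 ± 0.907 at input levels of 0 to 2.42 CPM, and lost it without any of 4 libraries (0.053 to 0.142).

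The 4 targets that rose were APS1, DCL1, AGO1 and ATHB-15. APS1, an ATP sulfurylase targeted by miR395, had 93.8, 101 and 115 CPM in WT GMUCT and 287, 307 and 295 CPM in mta, while its input went from 244 to 280 CPM to 398 to 412 CPM. Its share rose by 0.87 ± 0.140 (0.92 with the span trend removed). DCL1 and AGO1, which make and use miRNAs, rose by 0.78 ± 0.226 and 0.62 ± 0.174, with input lower in mta. Neither passed with the trend removed, where they stood at 0.04 and -0.03. DCL1 also lost the call without mta drought GMUCT replicate 2 (adjusted p = 0.061) and AGO1 without mta drought GMUCT replicate 3 (0.098). ATHB-15, a class III homeodomain factor targeted by miR166, rose by 0.73 ± 0.233, was at 0.27 with the trend removed and lost the call without any of 6 libraries (0.052 to 0.117).

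**Figure D4:**
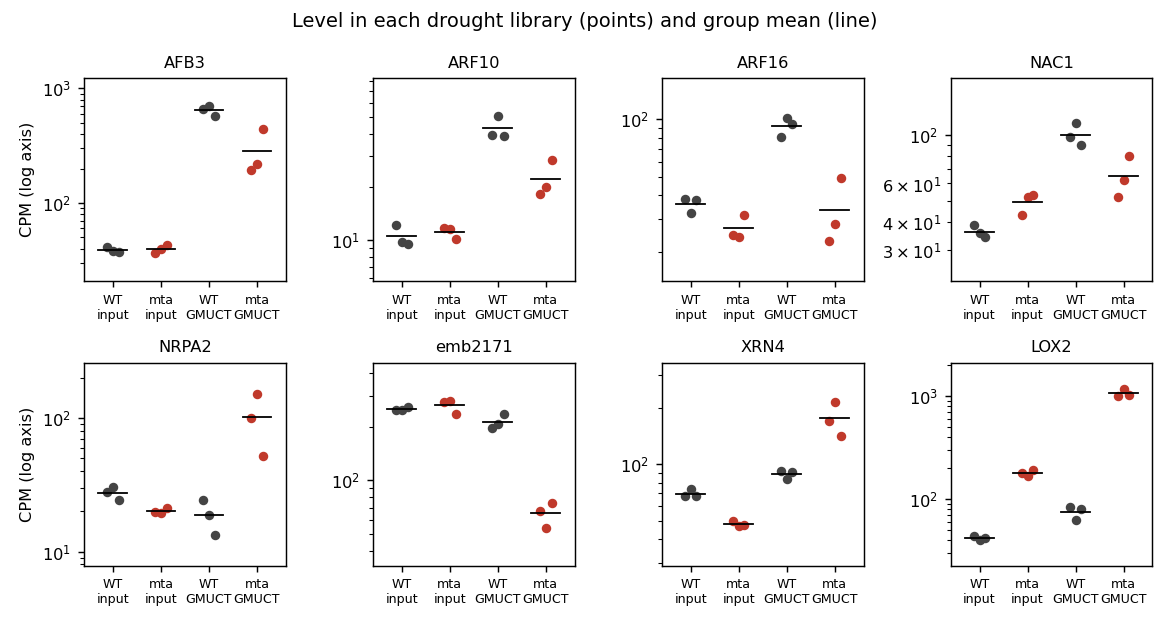
Levels (CPM, log axis) are shown for 8 genes in the 12 drought libraries, WT in grey and mta in red, with the group mean as a line. AFB3, ARF10, ARF16, NAC1 and emb2171 have less GMUCT signal in mta at input levels that moved less or the other way, XRN4 has more GMUCT and less input, and LOX2 rose in both assays.

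Among genes of the ribosome the calls went one way. Of 20 tested genes of cytosolic ribosomal proteins 10 fell (50%) and none rose, with a median of -0.47. In the 2 shortest span quintiles of all genes 16.7% and 11.4% were lower. GMUCT alone was lower in 15 of 20 (75%, against 19.2% of all genes) and input in 9 (against 24.6% of all genes). PFL, which encodes a protein of the small subunit, had 41.6, 53.5 and 48.7 CPM in WT GMUCT and 24.6, 17.5 and 27.1 CPM in mta at 59.6 to 64.4 CPM in WT input and 52.2 to 72.5 CPM in mta. The share fell by 1.03 ± 0.236. RPS6B fell by 0.73 ± 0.161, since GMUCT fell further (123 to 139 against 36.8 to 46.5 CPM) than input (410 to 425 against 205 to 230 CPM). With the span trend removed 3 of the 10 remained past the threshold, PFL, RPS6B and RPL23AA, and the median was -0.22. Ribosomal protein genes come in near-identical copies, among which reads may be split. Among 9 translation factors and poly(A)-binding proteins, the initiation factor EIF4G (1.36 ± 0.272) and the elongation factor LOS1 (1.25 ± 0.178) rose and TCTP fell by 0.90 ± 0.164. All 3 remained with the trend removed. LOS1 had 1113 to 1302 CPM in WT input and 535 to 571 CPM in mta, at GMUCT levels that overlap (504 to 586 against 540 to 678 CPM). TCTP, a protein linked to growth, had 1858 to 2497 CPM in WT GMUCT and 1195 to 1355 CPM in mta.

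Drought and ABA (abscisic acid) induced proteins had lower GMUCT in 20 of 25 genes (80%, against 19.2% of all genes). Their input was lower in 17 (against 24.6% of all genes). The share fell in 9 (36%) and rose in 4 (16%), with a median of -0.33. KIN2, a cold and ABA induced protein, fell by 1.16 ± 0.184, with input higher (363 to 426 against 616 to 726 CPM) and GMUCT lower (287 to 325 against 199.6 to 289 CPM, which overlap at the edge). COR15B, a chloroplast protein of cold and drought acclimation, fell by 1.38 ± 0.337 and the homeodomain gene HB-12 by 0.99 ± 0.182. All 3 also passed with the span trend removed, where 5 of the list fell and 2 rose (median -0.10). Among 35 genes that make, break down or signal ABA, the share was higher in 3 (8.57%) and lower in 4 (11.4%), near the 8.96% and 7.94% of all genes, and with the span trend removed 2 were higher and 5 lower. Among the lower ones were the receptors PYR1 (-0.91 ± 0.183) and PYL8 (-0.74 ± 0.216), both with higher input. PYR1 had 38.8 to 44.9 CPM in WT input and 69.95 to 84.4 CPM in mta, at 57.8 to 60.4 and 52.6 to 59.2 CPM in GMUCT. PYL8 did not pass with the trend removed (adjusted p = 0.0577). P5CS1, the rate-limiting enzyme of proline synthesis in stress, rose by 0.90 ± 0.128. It had 6478 to 6622 CPM in WT input and 3371 to 3549 CPM in mta, against 1771 to 1811 and 1709 to 1823 CPM in GMUCT. The share difference of P5CS1 was 0.43 with the trend removed, and that of P5CS2 went from 0.47 ± 0.133 to -0.003. P5CS1 and P5CS2 were the members that rose among 10 genes of proline and raffinose metabolism.

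Several chaperone and catalase genes had higher shares with and without the span trend. Of 21 tested heat shock and folding genes 4 rose (19%) and 1 fell (4.76%), and the 4 remained with the span trend removed, against 8.96% and then 4.2% of all genes. HSP90.1 had 158, 127 and 137 CPM in WT GMUCT and 467, 556 and 414 CPM in mta, with 30.2 to 35.0 CPM in WT input and 50.9 to 59.2 CPM in mta, a rise of 1.01 ± 0.202. HSP90.2 rose by 1.05 ± 0.213 with input of 116 to 132 CPM in WT and 113 to 140 CPM in mta. HSP90.2 has near-identical copies, so its reads may be shared with them. HSP70 (AT3G12580) rose by 1.03 ± 0.158 and HSC70-1, the constitutive cytosolic chaperone, by 0.72 ± 0.130, both with less input in mta and a smaller fall or none past the threshold in GMUCT. The catalases AT4G35090 (1.05 ± 0.176), AT1G20620 (0.85 ± 0.134) and CAT1 (0.74 ± 0.172) rose and remained, among 12 genes of reactive oxygen handling of which 4 rose and 1, DHAR1, fell (-0.86 ± 0.156). AT1G20620 had 5419 to 5989 CPM in WT input and 5365 to 6432 CPM in mta, at 3059 to 3535 CPM in WT GMUCT and 5536 to 6309 CPM in mta. The catalases moved by different routes: AT4G35090 fell in input (475 to 570 against 213 to 244 CPM) while its GMUCT did not pass. The fourth that rose was RBOHD, the NADPH oxidase of the plasma membrane (0.58 ± 0.165), at 0.13 with the trend removed.

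Defence genes were higher in mta in both assays. Of 34 tested genes of the salicylate and immune response, GMUCT was higher in mta in 34 and input in 31, with medians of 2.41 and 2.52. Over all genes GMUCT was higher in 20.2% and input in 23.1%. The share rose in 6 of the 34, above the 8.96% of all genes, and fell in 2 (5.88%, against 7.94%), with a median of 0.08, and with the span trend removed it rose in 5 and fell in 1. PR1, an antimicrobial marker of the salicylate response, had 31.5 to 38.7 CPM in WT input and 1149 to 1332 CPM in mta, and 78.3 to 107 CPM in WT GMUCT and 1728 to 2164 CPM in mta. Its uncapped share fell by 0.76 ± 0.183 (-0.45 with the span trend removed, adjusted p = 0.08). The transcription factor gene WRKY70 fell by 0.90 ± 0.205. Of 17 jasmonate genes only LOX2, the chloroplast lipoxygenase at the start of jasmonate synthesis, passed, and 2 rose with the span trend removed. LOX2 had 84.7, 63.1 and 80.8 CPM in WT GMUCT and 1000, 1171 and 1021 CPM in mta, and 40.4 to 44.0 CPM in WT input and 168 to 193 CPM in mta. The share of LOX2 rose by 1.71 ± 0.206 (1.40 with the trend removed). Of 22 senescence and autophagy genes, GMUCT was higher in 15 (68.2%, against 20.2% of all genes) and the share fell in 6 (27.3%) and rose in 2 (9.09%). With the span trend removed 2 fell and 1 rose. SAG13 fell by 0.93 ± 0.204 with input at 123 to 125 CPM in WT and 1303 to 1370 CPM in mta. SAG29 fell by 0.82 ± 0.181 with both assays lower in mta.

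In photosynthesis the direction of the counts depended on the trend. Of 40 genes 4 rose (10%) and 8 fell (20%) before its removal, and 7 rose (17.5%) and 1 fell (2.5%) after it, and the median went from -0.21 to 0.002. RCA, the activase of Rubisco, rose in both fits (1.07 ± 0.133 and 0.98), with 286 to 349 CPM in WT GMUCT and 471 to 483 CPM in mta and with less input in mta (655 to 694 against 467 to 498 CPM). LHCB2.1, a light-harvesting protein with near-identical copies, fell by 1.04 ± 0.279, but not past the threshold with the trend removed (adjusted p = 0.0926). Of 17 aquaporins 5 fell (29.4%) and none rose, and 11 had higher input in mta, against 23.1% of all genes. TIP2, a water channel of the vacuole membrane, fell by 0.99 ± 0.187 while both assays rose (59.8 to 74.2 against 217 to 232 CPM in input, 181 to 194 against 263 to 362 CPM in GMUCT). GAMMA-TIP (-0.87 ± 0.235) and PIP1C (-0.66 ± 0.171) fell with higher input, and neither passed with the trend removed, where 2 aquaporins fell and 1 rose.

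Among the genes of the leaf surface and wall, 4 of 11 wax genes rose (36.4%) and 1 fell. Their median was 0.52, and it was 0.68 with the span trend removed, where 3 rose. CER3, a component of alkane synthesis, had 26.2, 34.0 and 27.4 CPM in WT GMUCT and 73.8, 96.1 and 79.2 CPM in mta, and its share rose by 1.07 ± 0.195. CER1, its partner, rose by 1.05 ± 0.228 through lower input (40.9 to 56.9 against 24.4 to 32.2 CPM). CER2, which acts in chain elongation, rose by 0.86 ± 0.264 but not without any of 4 libraries (adjusted p 0.050 to 0.147). CER4 passed at input levels of 0.44 to 0.54 CPM in WT and 0 in all 3 mta libraries, too few counts for a size. LTPG1, a lipid transfer protein, fell by 0.62 ± 0.174, and did not pass with the trend removed. Of 18 genes of the cell wall and expansion 4 rose (22.2%) and 1 fell (5.56%), and with the span trend removed 2 rose and 1 fell. CESA1, a catalytic subunit of cellulose synthase, had 486 to 553 CPM in WT input and 90.0 to 106 CPM in mta, and GMUCT fell less, from 336 to 356 CPM to 150 to 205 CPM. Its share rose by 1.46 ± 0.178. CSI1, which tethers cellulose synthase to microtubules, rose by 2.08 ± 0.385. Both remained with the trend removed. In the glucosinolate list 2 of 14 rose, SUR1 among them (0.80 ± 0.174), and in the circadian clock 1 of 14 fell, ELF4 (-0.81 ± 0.179). The lists were chosen with results of these data known, and none was tested as a list.

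**Figure D5:**
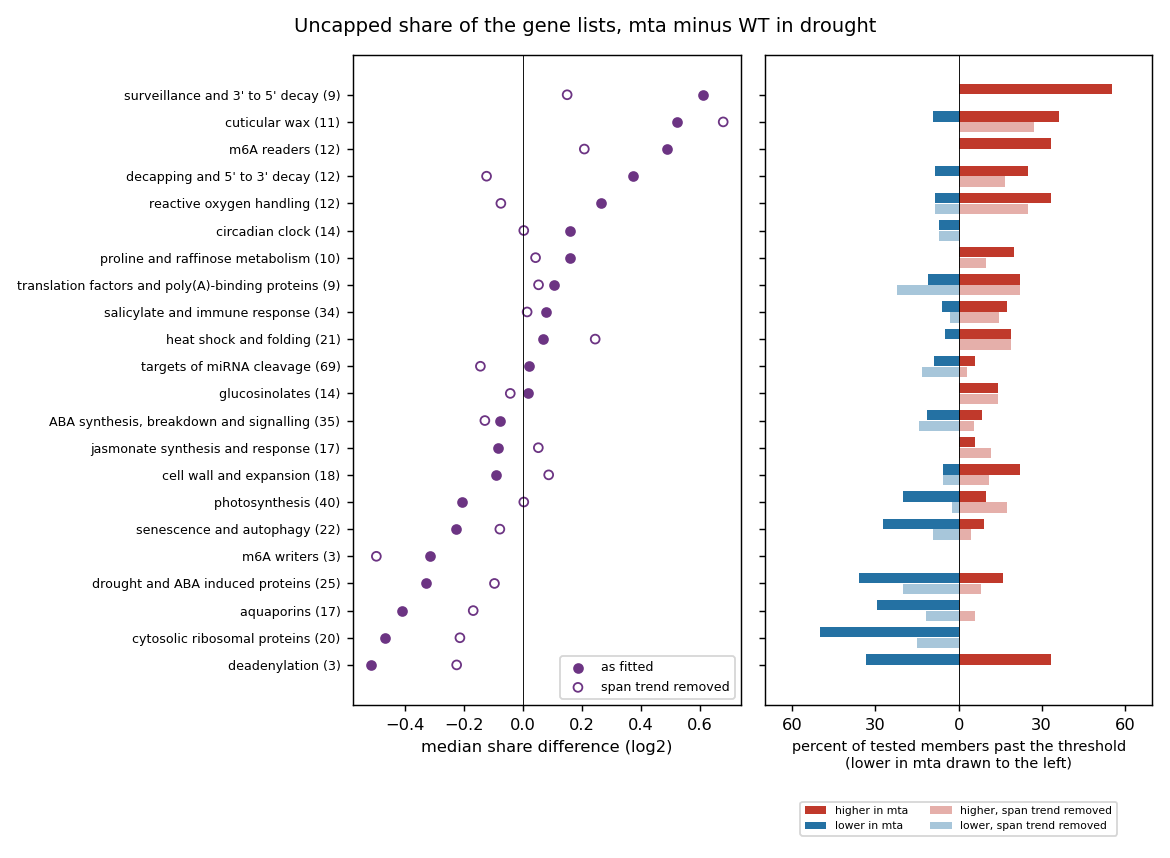
The left panel gives the median log2 difference of the uncapped share per gene list, with the number of tested genes in brackets, as fitted (filled) and with the span trend removed (open). The right panel gives the percent of tested members higher (to the right) and lower (to the left) in mta, with pale bars after removal of the trend. The readers, the surveillance and the deadenylation genes have calls only before removal.

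The m6A peak lists gave another readout that the choice of comparison had not used. Peak calling depends on transcript level, so the classes below are not independent of the input difference between genotypes. The authors' lists held 11640 to 12064 nuclear peaks per WT drought library and 7744 to 10355 per mta drought library. A gene had an m6A region in a genotype when peaks of at least 2 of 3 libraries overlapped its span on its strand. Of the tested genes, 7484 had one in both genotypes, 2877 in WT only, 306 in mta only and 8323 in neither. The median share difference was 0.02, 0.05, -0.18 and -0.12 in this order. Among the genes with a region in WT only, 10.5% were higher and 6.81% lower in mta, against 8.96% and 7.94% of all genes. Those with a region in both genotypes had 14.5% and 9.59%, and those with neither had 3.54% and 6.76%. The classes differed in input level, 3669 of the 8323 genes with neither but 27 of the 7484 with both lying in the lowest level quintile. In the highest level quintile 9.87% of the genes with neither were higher and 27.1% lower, against 23.2% and 13.6% of those with both. The median spans there were 1850 bases with neither and 2971 with both. With the span trend removed, 9.37% of the genes with neither in this quintile were higher and 13.7% lower, against 9.27% and 12.3% with both.

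The classes differed in span, with medians of 2762, 2644, 1828 and 2032 bases. Within the longest quintile of genes the class medians were 0.47 (both), 0.50 (WT only), 0.31 (mta only, 20 genes) and 0.37 (neither), and within the shortest -0.46, -0.43, -0.46 and -0.42. With the span trend removed the medians lay between -0.06 and -0.02 in all 4 classes, and 4.28% of the WT-only genes were higher and 4.31% lower. GMUCT and input moved in parallel in each class: the medians were -0.16 and -0.16 with a region in both genotypes, -0.12 and -0.20 in WT only, 0.67 and 0.85 in mta only, and 0.23 and 0.23 in neither.

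In watered plants the same contrast passed in 84 genes (0.442%), 50 higher and 34 lower. That count rests on single libraries and settings: it was 33 without WT control input replicate 2, 133 without mta control GMUCT replicate 1, 13 after thinning and 225 by DESeq2. The difference between the drought and the watered contrast itself passed in 1512 genes (7.96%), and in 1299 of the 3209 drought genes. Both contrasts passed in 27 genes, in 24 of them with 1 direction. The polysome association of the drought plants (polysomal minus input) shares the input libraries with the uncapped share, so its values are only set beside it. The polysome association of XRN4 was 0.72 ± 0.132 in mta minus WT, that of LOX2 1.54 ± 0.153 and that of CESA1 0.95 ± 0.130. That of AFB3 was -0.17 ± 0.149 and that of emb2171 -0.23 ± 0.108, neither past the threshold.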

How the data were processed

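The authors deposited raw counts per gene for each input, GMUCT and polysomal library. The tables' headers name featureCounts (2.0.1 in some, 2.0.3 in others) and a gene model file that covers each TAIR10 gene from start to end. Strand was used for input and not for GMUCT. Per the submitters' processing notes STAR and MACS2 were among the tools, with parameters not given in the sources used here. The m6A files are the authors' deposited peak lists per library and strand, whose fold enrichment (ratio) was not used here.

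The analysis used edgeR 4.0.16 under R 4.3.3: nuclear genes, filterByExpr (minimum count 10, minimum total 15), TMM scaling over 24 GMUCT and input libraries of drought and watered plants, 1 mean per group and assay, and a quasi-likelihood F test with Benjamini-Hochberg adjustment at 0.05. Values are log2 differences ± SE, mta minus WT, with 3 libraries per group and assay. The CPM printed are relative to the TMM-scaled library totals, except the summed markers, which are relative to nuclear counts. The span trend was removed by a loess curve (span 0.3) of each library's log2 CPM, relative to its assay's mean, on log2 gene span, entered as offsets. Polysome association was fitted in the same way.

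The text names MTA, the called members of a list that differed most (at most 3 a list), and the leading genes of 6 kinds (largest rises and falls, and rises and falls led by GMUCT or by input alone), with some left out for length; 1 list member is not reported here. The other list members named (such as ARF10, ARF16, TCP4, APS1, DCL1, AGO1, ATHB-15, ECT2, ECT3, UPF3 and LSM1A) were chosen after their values were seen. The comparison, the members and the lists were chosen with earlier results of these data known. The lists held 519 entries, of which 488 matched a symbol in RefSeq's TAIR10.1 gene table and 455 were tested. No eraser of m6A and no trans-acting siRNA locus was analysed here. Alternatives were other scalings, filters, tools, subsets, thinning, a replicate block and leaving out each library.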

Additional observations from a re-analysis of the deposited data

Results flagged for a closer look

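The genotype effect on the uncapped share differed between drought and watered plants, by the test of the difference itself in the fit over all libraries, in 867 genes toward a more positive effect in drought and in 645 toward a more negative one. The count of both directions was 461 with the span trend removed.

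Of the genes named above, 53 passed that test (log2, effect in drought minus effect in watered plants). More positive in drought were AT3G01345 (3.08), NRPA2 (2.93), MET1 (2.43), AT1G09040 (2.35), CSI1 (2.16), LOX2 (1.76), NPH3 (1.71), XRN4 (1.56), TRM19 (1.51), AFH14 (1.48), HSP90.2 (1.36), EIF4G (1.35), RCA (1.34), AT5G22780 (1.27), CESA1 (1.25), AT4G35090 (1.25), EMB2247 (1.22), AT1G20620 (1.22), APS1 (1.21), HSP90.1 (1.21), XRN3 (1.12), HSC70-1 (1.10), SUR1 (1.08), CER3 (1.04), HSP70 (1.03), ECT10 (1.00), P5CS1 (0.99), LOS1 (0.99), CAT1 (0.96), UPF1 (0.96), P5CS2 (0.84), RBOHD (0.69).

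More negative in drought were PIP1C (-0.70), DHAR1 (-0.72), PYR1 (-0.81), PR1 (-0.87), SAG13 (-0.98), GAMMA-TIP (-1.02), AT1G64360 (-1.06), TIP2 (-1.13), TCTP (-1.16), AT1G80180 (-1.26), ELF4 (-1.31), KIN2 (-1.43), emb2171 (-1.48), COR15B (-1.72), VAMP723 (-1.93), PUX1 (-1.93), AT5G55460 (-1.98), AT5G06210 (-1.99), GSTU8 (-2.12), AT2G42360 (-2.22), AT1G15010 (-3.07). XRN3, UPF1, P5CS2, RBOHD, ECT10, PIP1C, PR1 and GAMMA-TIP are among them but did not keep their drought call with the span trend removed. This concerns the drought call only. For the difference between drought and watered plants no value per gene with the trend removed is given here. Over all genes that test passed in 1512 before removal and in 461 after it, so the other genes named need not keep it.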

How the results depend on the processing

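Removing the span trend gave 797 higher and 1010 lower genes, 461 differing between drought and watered plants and 33 lower list members. Removing it with a replicate block gave 910 higher genes and 38 lower list members, and removing it from input alone gave 869 higher and 832 lower genes, 444 differing and 27 lower list members. The longest minus the shortest span quintile, 0.89 as reported, was then 0.1604, 0.1635 and 0.0843, and 0.38 with no filter; the WT-only minus neither m6A difference, 0.17, was 0.0253, 0.0189, 0.00969 and 0.0239 in the same order. Thinning to the lowest total gave 954 higher and 850 lower genes, 509 differing, 13 in watered plants and 37 lower list members. Watered plants had 156 genes with no filter, 225 by DESeq2 and 44 among genes overlapping no other, where 35 list members were higher. The cause was not tested.

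AGO1 was -0.0345 with the span trend removed, -0.0518 with the block as well and -0.00902 with the trend removed from input alone, and P5CS2 -0.00302 with it removed. Thinning also ended the calls of DCL1, AGO1, RBOHD, LTPG1, TCP4, ARF10, AT1G09040, VAMP723, MET1, PYL8, ELF4, CER4, XRN3, SUR1, ECT10, ECT8, P5CS2, PR1, RRP44A and GRF4. Of 85 named genes past the threshold, 54 passed in every setting and 14 lost the call without at least 1 library.

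Leaving out a library gave 1310 to 1775 higher and 1176 to 1594 lower genes, 3292 to 3955 and 3192 to 4015 for GMUCT, 3933 to 4477 and 4158 to 4923 for input, 33 to 133 in watered plants, 978 (without WT control input replicate 2) to 1855 differing, 47 to 62 higher and 43 to 68 lower list members, 0.82 to 0.95 for span and 0.12 to 0.19 for m6A. With group means taken out, same-numbered GMUCT and input libraries of a group correlated at -0.01 to 0.12. Differently numbered ones correlated at -0.09 to 0.06. Correlations this weak cannot tell whether the numbers pair the libraries. A replicate block within group gave 1777 higher and 1589 lower genes, and one by number 1675 and 1456. Depth limits small differences: the median SE was 0.318.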
